A study of Mus musculus with 14 samples.

Results

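The 9 genes described here belong to the unfolded protein response and the integrated stress response of mouse bone marrow cells: Atf4, Ddit3, Trib3, Asns, Xbp1, Hspa5, Atf6, Ern1 and Herpud1. They were chosen by name, as 9 of 38926 gene entries in the LSK and MyePro count files, where they were found by symbol, and as 9 of 39179 in the LT-HSC files, where they were found by Ensembl gene ID. All 9 were present in all 8 RNA libraries. The study asked how loss of DPY30, a subunit of the complexes that methylate lysine 4 of histone H3, alters gene expression in blood stem and progenitor cells.

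Control cells were Mx1-Cre; Dpy30F/+ and KO cells were Mx1-Cre; Dpy30F/-, so that both carried the Cre transgene, whose promoter responds to interferon, and a floxed Dpy30 allele. Cells came from mixed bone marrow chimeras, in which CD45.2+ donor marrow of either genotype was mixed with competitor marrow from C57Bl/6J CD45.1+ mice and given to irradiated CD45.1+ recipients. Recipients of control and of KO marrow were injected with pIpC, an inducer of interferon, at 7.5 µg/g for 4 times over 10 days starting 7 weeks after transplantation, and marrow was taken 2 weeks after the last dose. The ages of the animals are not given. Long-term hematopoietic stem cells (LT-HSC) have 2 libraries per genotype, from transplants numbered 1 and 2, with RNA amplified from pools of 7 to 9 mice. LSK cells, a lineage-negative fraction rich in stem cells and multipotent progenitors, and MyePro cells, a name that the labels neither expand nor define by a gate, were sequenced as 1 library per genotype from pools of 2 to 3 mice without amplification. Sorting of donor-derived cells is stated for LT-HSC only. Since LSK and MyePro have 1 library per group, their differences have no replicate check, and the 95% intervals given with them cover counting error only.

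The unfolded protein response is set off when proteins misfold in the endoplasmic reticulum (ER). It is relayed by the membrane sensors IRE1 (encoded by Ern1), ATF6 and PERK, and it raises ER chaperones, protein degradation factors and the transcription factor XBP1. The integrated stress response joins PERK with other kinases that sense amino acid shortage, heme shortage and viral RNA. These kinases slow translation and at the same time favour translation of ATF4, which switches on genes of amino acid supply and, with prolonged stress, the factor CHOP (encoded by Ddit3) and the pseudokinase TRIB3. In blood stem cells both branches are known for their part in how the cells respond to protein damage and nutrient shortage. Counts of reads per gene show the transcript level only. They do not show Xbp1 splicing, ATF6 cleavage, phosphorylation of the kinases or translation of Atf4.

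The promoter windows of RefSeq (GRCm38.p6, 250 bases before to 50 after the start, 300 bases in all) were searched because several of these genes are known to be reached through short response elements. Windows were available for 8 of the 9 genes. Stretches from 3 of them are shown 5′ to 3′ on the gene's strand, with the matched letters in capitals, for the ER chaperone gene (Hspa5), the 1 gene of those averaging 5 CPM or more that was at least 2-fold apart between KO and control MyePro (Asns) and an ER degradation gene (Herpud1). Hspa5 is at chr2:34772010-34772058 on the + strand, Asns at chr6:7693210-7693247 on the - strand and Herpud1 at chr8:94386302-94386339 on the + strand.
Hspa5: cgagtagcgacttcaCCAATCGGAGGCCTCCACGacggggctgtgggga
Asns: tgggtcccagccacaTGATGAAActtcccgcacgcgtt
Herpud1: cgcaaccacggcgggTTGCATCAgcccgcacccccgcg
The capitals in Hspa5 match the ER stress response element, searched on both strands as CCAAT, 9 bases of any kind and CCACG, at bases -65 to -47 from the start. That element was in 39 of 32851 windows (0.119%) and in 1 of the 8 windows of these genes. The capitals in Asns (bases -23 to -16) match the amino acid response core TGATGNAA on the strand of the gene, and those in Herpud1 (bases -112 to -105) match it on the opposite strand. A match to this core was present in 1304 windows (3.97%) and in 3 of 8 here, the other being Trib3, at bases 15 to 22 after the start on the opposite strand. The core of the unfolded protein response element, TGACGTGG, was in 222 windows (0.676%) and the cAMP response element TGACGTCA in 588 (1.79%), and neither was in any of the 8. The first of these overlaps the end of the ER stress response element when read on the other strand, and both share TGACGT. A match describes letters and not a bound site.

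Gene counts per library ran from 6130320 (KO LSK) to 20820762 (control MyePro) in LSK and MyePro and from 38060087 to 85499797 in LT-HSC. Mitochondrial ribosomal RNA took 45.1% to 62.4% of LT-HSC gene counts, highest in KO LT-HSC 1, and at most 0.317% in the other libraries. Levels are therefore given as CPM, a gene's reads scaled to a common library size, after TMM scaling. TMM was run within LT-HSC and within LSK and MyePro apart, and sets the bulk of genes equal between the libraries of each set. Dpy30 itself was at 78.0 CPM in control and 42.3 in KO LSK and at 114 in control and 51.8 in KO MyePro. Reads of Dpy30 thus remained in both of these KO libraries, and their source was not tested. In LT-HSC Dpy30 was at 12.9 and 8.43 CPM in control libraries 1 and 2 and at 14.1 and 4.67 in the libraries labelled KO. On this scale KO LT-HSC 1 thus went against its label. Scaled by plain library totals, both KO libraries (8.18 and 5.88 CPM) lay below both controls (15.6 and 9.59). Those totals hold the mitochondrial ribosomal RNA, whose share was highest in KO LT-HSC 1 and lowers the CPM of its other genes. The order on plain totals therefore does not settle the label of KO LT-HSC 1. The LT-HSC libraries are named by their labels throughout. All 10 stem cell markers were detected in all 8 libraries, summing to 1821 CPM in control LSK and 828 in control MyePro. In LT-HSC they summed to 511 to 963 CPM. The LT-HSC totals hold the mitochondrial ribosomal RNA, so these sums cannot be set against those of LSK and MyePro. All 8 myeloid progenitor markers were detected in each library too. These summed to 3246 and 3016 CPM in control and KO LSK and to 11139 and 6793 in control and KO MyePro. In bulk RNA, fewer cells of a type and less RNA per cell cannot be told apart.

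The stem cell markers were at 1535 CPM in KO LSK and 811 in KO MyePro. Markers of other cell types also differed between the LSK and MyePro libraries. The summed level of 10 erythroid markers, all detected, was 5592 CPM in control and 843 in KO MyePro, and 1698 in control and 765 in KO LSK. For 7 mature neutrophil markers it was 23.8 and 615 CPM in control and KO MyePro, with Camp at 0 in both and 6 detected, and 10.7 and 171 CPM in control and KO LSK, with Retnlg, S100a8 and S100a9 at 0 in the control. The 6 mast cell and basophil markers summed to 526 and 1248 CPM in control and KO MyePro and to 312 and 794 in LSK, and the 6 megakaryocyte markers to 174 and 1425 in MyePro and 671 and 709 in LSK. For the 7 macrophage and dendritic cell markers the sums were 76.0 and 168 CPM in MyePro and 602 and 151 in LSK. Plasma cells, which secrete antibodies, are known for high Xbp1. The 11 plasma and B cell markers summed to 130 and 20.2 CPM in control and KO MyePro, with Mzb1, Ms4a1 and Tnfrsf17 at 0 in both, and to 228 and 104 CPM in control and KO LSK. The part of these cell types, and of the lower myeloid progenitor markers in KO MyePro, in the differences below was not tested.

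Among the ER stress sensors, Ern1 was higher and Atf6 slightly lower in the KO libraries. Ern1, on chromosome 11 (106397620 to 106487796, ENSMUSG00000020715), encodes IRE1, the kinase and RNase that splices Xbp1. It was at 48.5 CPM in control LSK, 56.7 in KO LSK, 52.2 in control MyePro and 89.6 in KO MyePro (713, 375, 1041 and 1018 reads). The KO to control log2 ratio was 0.78 (0.65 to 0.90), or 1.72-fold, in MyePro and 0.23 (0.04 to 0.41) in LSK, and the MyePro value stood above the LSK value by 0.55 (0.33 to 0.77). KO MyePro was the highest of the 4 libraries, and in the order control LSK, control MyePro, KO LSK and KO MyePro only the last step was beyond counting error. Atf6, on chromosome 1 (170704457 to 170868585, ENSMUSG00000026663), encodes a sensor that is cut in the Golgi to release a transcription factor. It was at 55.4 and 46.3 CPM in control and KO LSK and at 57.3 and 49.0 in control and KO MyePro. The log2 ratios were -0.26 (-0.45 to -0.07) and -0.23 (-0.37 to -0.08), and their difference, 0.03 (-0.21 to 0.27), was within counting error.

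Xbp1, on chromosome 11 (5520641 to 5525993, ENSMUSG00000020484), encodes the transcription factor made active by IRE1 splicing. It was lower in KO LSK, at 67.4 CPM against 110 in control LSK (446 and 1624 reads), and close to the control in KO MyePro, at 128 CPM against 134 (1449 and 2679 reads). The log2 ratio was -0.71 (-0.86 to -0.56) in LSK and -0.08 (-0.17 to 0.02) in MyePro. The difference between populations was 0.63 (0.46 to 0.81). KO LSK held the lowest Xbp1 level of the 4 libraries, and the levels of KO and control MyePro did not differ beyond counting error.

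The genes that ER stress raises stood apart from each other. Hspa5, on chromosome 2 (34772090 to 34776529, ENSMUSG00000026864), encodes BiP, the main ER chaperone of the HSP70 family. It was at 717 CPM in control LSK and 493 in KO LSK, and at 1066 in control MyePro and 667 in KO MyePro (10546, 3261, 21256 and 7584 reads). KO libraries held 68.8% of the control level in LSK, a log2 ratio of -0.54 (-0.60 to -0.48), and 62.6% in MyePro, -0.68 (-0.71 to -0.64). Both KO libraries lay below both controls, and each step in the order KO LSK, KO MyePro, control LSK, control MyePro was beyond counting error. Herpud1, on chromosome 8 (94386429 to 94395371, ENSMUSG00000031770), encodes an ER membrane protein of the degradation machinery. It was at 85.5 and 83.3 CPM in control and KO LSK and at 88.0 and 107 in control and KO MyePro. Its log2 ratio was -0.04 (-0.18 to 0.11) in LSK and 0.29 (0.18 to 0.39) in MyePro, where the KO library was the highest of the 4. With plain library totals in place of TMM the LSK value was 0.10.

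**Figure D1:**
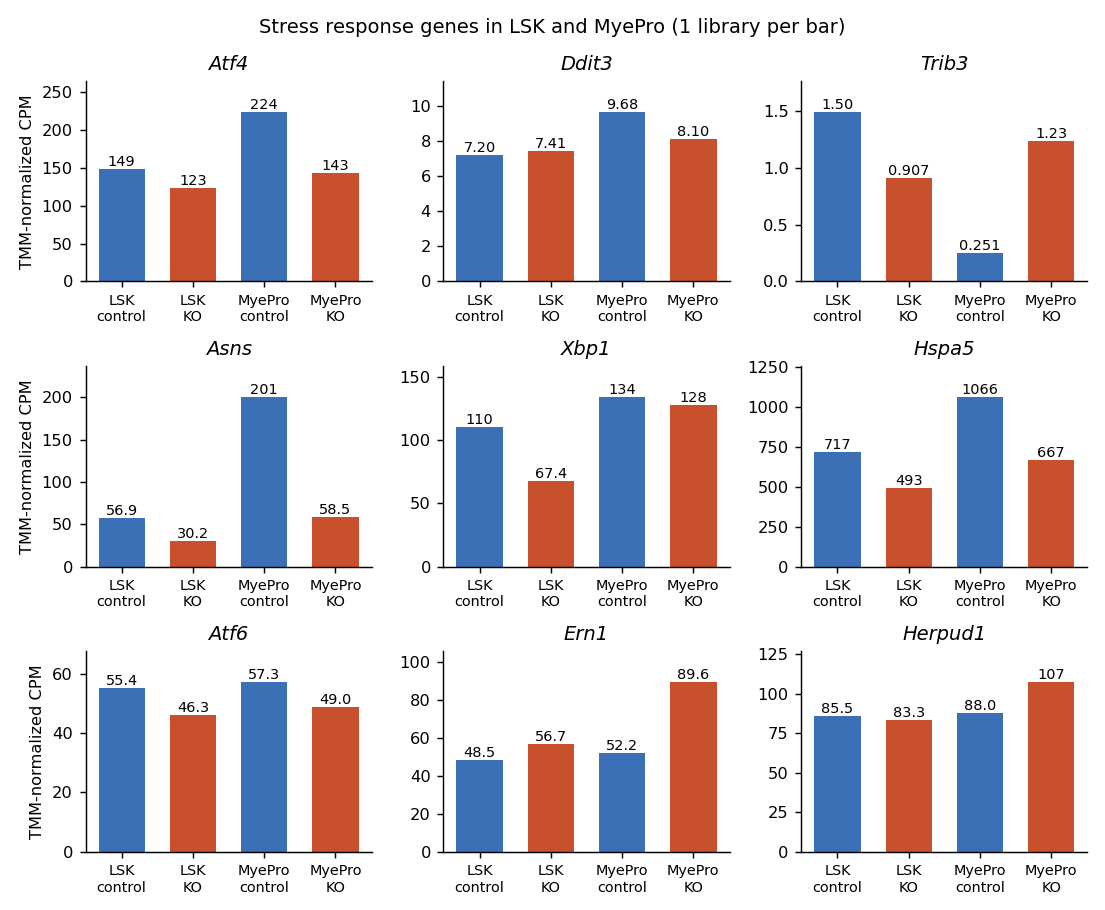
Level of each of the 9 genes (y axis, TMM-normalized CPM from 0, with a scale of its own in each panel) in the 4 LSK and MyePro libraries, 1 library per bar, control in blue and KO in red, with the level printed above each bar. Asns stands at 201 CPM in control MyePro and at 58.5 or less in the others, Ern1 is highest in KO MyePro at 89.6, and Xbp1 is lowest in KO LSK at 67.4.

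The chosen genes of the ATF4 branch were Atf4, Ddit3, Trib3 and Asns. Of these, Asns had the widest KO difference in MyePro among those averaging 5 CPM or more. Asns, on chromosome 6 (7675165 to 7693209, ENSMUSG00000029752), encodes asparagine synthetase and is a known ATF4 target. It was at 201 CPM in control MyePro and 58.5 in KO MyePro (3999 and 665 reads), and at 56.9 in control LSK and 30.2 in KO LSK (838 and 200 reads). In MyePro the KO library was 3.43-fold below the control, a log2 ratio of -1.77 (-1.90 to -1.66), which ranked 210th from the lowest among the 10244 genes that averaged 5 CPM or more. In LSK it was 1.88-fold below, -0.91 (-1.14 to -0.69), and ranked 661st among 10311. The MyePro ratio was further below 0 than the LSK ratio by a log2 difference of -0.86 (-1.12 to -0.61). The Asns level of KO MyePro did not differ beyond counting error from that of control LSK.

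Atf4, on chromosome 15 (80255184 to 80257545, ENSMUSG00000042406), encodes the transcription factor at the centre of the integrated stress response. It was at 149 CPM in control LSK, 123 in KO LSK, 224 in control MyePro and 143 in KO MyePro (2190, 815, 4467 and 1627 reads). KO libraries held 82.8% of the control level in LSK, a log2 ratio of -0.27 (-0.39 to -0.16), and 63.9% in MyePro, -0.65 (-0.73 to -0.56). The difference between populations was -0.37 (-0.52 to -0.23). Control MyePro stood highest, and KO MyePro and control LSK did not differ beyond counting error.

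Ddit3 and Trib3 were low in LSK and MyePro. Ddit3, on chromosome 10 (127290793 to 127296291, ENSMUSG00000025408), encodes CHOP, a factor linked to cell death under long ER stress. Its levels were 7.20 and 7.41 CPM in control and KO LSK and 9.68 and 8.10 in control and KO MyePro (106, 49, 193 and 92 reads), with no step between neighbours in the order of levels beyond counting error. The KO to control log2 ratio was 0.04 (-0.48 to 0.54) in LSK and -0.25 (-0.63 to 0.11) in MyePro, and a difference was not detectable at this depth. Trib3, on chromosome 2 (152337425 to 152344060, ENSMUSG00000032715), encodes a pseudokinase raised by ATF4 and CHOP. It had 22 and 6 reads in control and KO LSK and 5 and 14 in control and KO MyePro, and it was left out of the counts over genes as its mean was under 5 CPM. Its level in KO MyePro was 1.23 CPM against 0.251 in the control, a log2 ratio of 1.78 (0.74 to 4.12) that rests on 19 reads in all. In LSK the ratio was -0.64 (-2.31 to 0.63). With so few reads the prior count of 2 shrinks the ratio, while the interval is of the counts without it. In MyePro a prior count of 0.5 gave 2.14 and 1 of 5 gave 1.35.

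**Figure D2:**
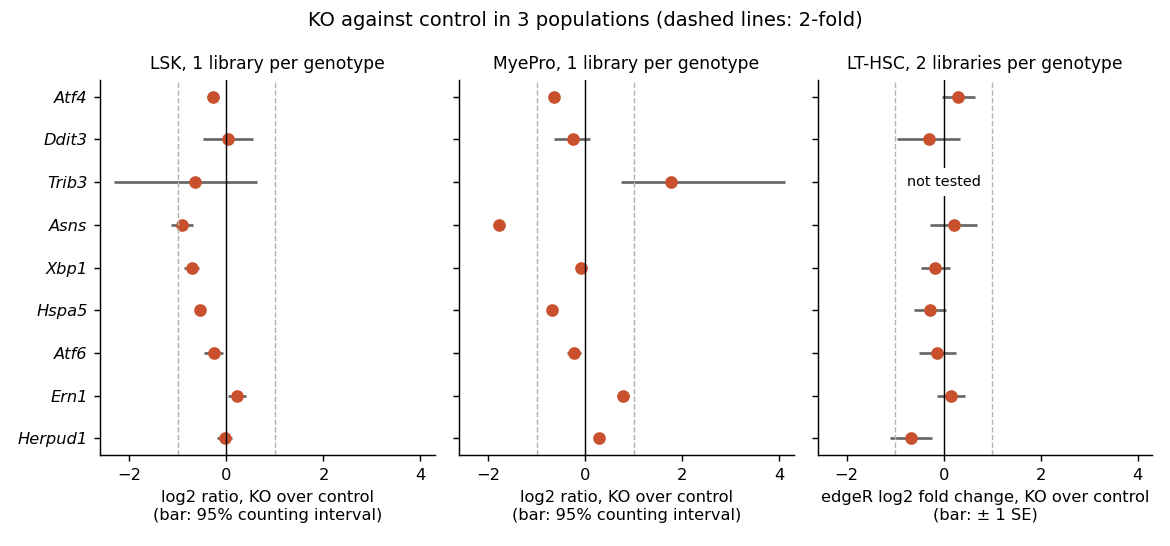
Log2 ratio of KO over control (x axis, prior count 2) for each of the 9 genes in LSK (left) and MyePro (middle), 1 library per genotype with bars for the 95% counting interval, and in LT-HSC (right), edgeR's log2 fold change over 2 libraries per genotype with bars of 1 SE, where Trib3 was not tested. Dashed lines mark 2-fold. Asns in MyePro is the lowest point at -1.77, Ern1 in MyePro is at 0.78, and Trib3 has the widest intervals.

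The KO differences were also read against all genes, without Trib3. A 2-fold difference, the limit used for LSK and MyePro, was passed by 0 of the 8 genes counted in LSK, where 10.4% of 10311 genes passed it. In MyePro it was passed by 1 of 8, Asns, where 19.3% of 10244 genes passed it. Counts out of 8 are too small to be told apart from these shares. In LSK, 513 genes (4.98%) were at least 2-fold higher and 556 (5.39%) lower, and with plain library totals these were 648 and 457. In MyePro, 11.3% were at least 2-fold higher and 7.99% lower. The median log2 ratio of the 8 was -0.27 in LSK and -0.24 in MyePro, beside -0.04 and -0.08 over all genes counted. In each population 5 of the 8 lay below the median of all genes, and the count was the same with plain library totals, RLE factors or TMM on the 2 libraries alone. Lower in both KO libraries with intervals clear of 0 were Atf4, Asns, Hspa5 and Atf6, and higher in both was Ern1. With plain library totals the LSK value of Atf6 was -0.12 (-0.32 to 0.07), no longer clear of 0, and that of Atf4 was -0.14 (-0.26 to -0.02).

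The levels were also compared between LSK and MyePro within each background, as the design sets out to follow the step from one to the other. These comparisons use the same 4 libraries as the ones above. In the control background all 8 genes counted had a positive log2 ratio of MyePro over LSK. Their median was 0.35 beside 0.05 for all genes, of which 44.9% lay below 0. Above the median of all genes were 6 of the 8. Trib3, not counted, was at -2.03 (-4.33 to -1.14) on 22 and 5 reads. Among the 8, 1, Asns, was at least 2-fold higher, beside 3.01% of 10059 genes higher and 10.2% either way. Asns was 3.52-fold higher in MyePro than in LSK, a log2 ratio of 1.81 (1.71 to 1.93), and 88th from the highest of those 10059 genes. Atf4 followed at 0.59, Hspa5 at 0.57 and Ddit3 at 0.42 (0.08 to 0.78), and Xbp1 was at 0.28. For Atf6 (0.05, -0.08 to 0.18) and Ern1 (0.11, -0.03 to 0.25) the levels of control LSK and MyePro did not differ beyond counting error, and Herpud1 was at 0.04.

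In the KO background the step from LSK to MyePro was set out differently among the genes. None of the 8 passed 2-fold, beside 4.68% of 10360 genes. Asns was 1.94-fold higher in MyePro, at 0.95 (0.72 to 1.19), which was 371st from the highest of those genes. Xbp1 was at 0.92 (0.77 to 1.08), Ern1 at 0.66 (0.49 to 0.83) and Herpud1 at 0.37 (0.22 to 0.51), each above its value in the control background. Hspa5 was at 0.44 and Atf4 at 0.22, each below its value in the control background. The median was 0.40 beside 0.00 for all genes, of which 50.1% lay below 0. All 8 were above the median of all genes under each scaling tried. The counting intervals of the change in step, which is the same number as the change in KO ratio between populations, were clear of 0 for all but Ddit3, at -0.29 (-0.90 to 0.31), and Atf6. For Hspa5 the size was -0.14 (-0.20 to -0.07), for Herpud1 0.32 (0.14 to 0.50), and for Trib3, on its few reads, 2.42 (0.52 to 4.31).

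**Figure D3:**
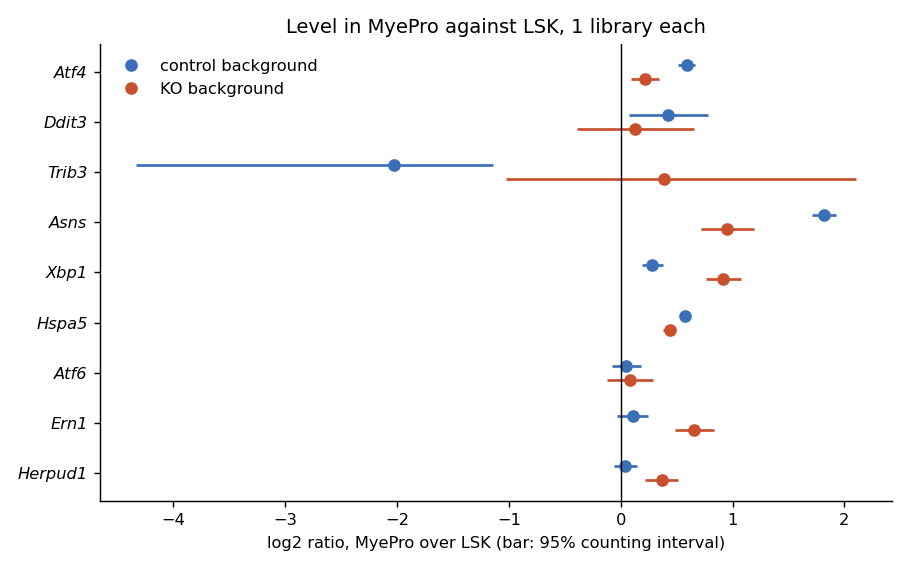
Log2 ratio of MyePro over LSK (x axis) for each of the 9 genes in the control background (blue) and the KO background (red), 1 library per point, with bars for the 95% counting interval. Asns is at 1.81 in control and 0.95 in KO cells, Xbp1 at 0.28 and 0.92, and Ern1 at 0.11 and 0.66.

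LT-HSC are the population with replicates, and none of the 8 genes tested there passed the test. Of the 12844 genes tested with edgeR's quasi-likelihood test, 2 (0.0156%) had a Benjamini-Hochberg adjusted p under 0.05, and 0 of the 8 genes tested did. At an unadjusted p under 0.05 the count was 0 of 8, beside 2.29% of all genes, and DESeq2 also called 0 of the 8. The adjusted p was 0.999 for each of the 8 in edgeR's test, and the log2 fold changes lay between -0.67 and 0.30 with standard errors of 0.287 to 0.649. Shared transplant numbers as a block left 0 of 8 past the threshold as well.

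Values by library show how far the LT-HSC replicates spread. Herpud1 was at 11.7 and 18.8 CPM in controls 1 and 2 and stood at 7.98 and 11.1 in the libraries labelled KO 1 and 2, means of 15.2 ± 5.04 and 9.55 ± 2.22 (SD, n = 2). Both KO libraries lay below both controls, as was the case on one side or the other for 27.7% of the genes tested. The log2 fold change was -0.67 ± 0.437 (SE), with an unadjusted p of 0.168 and an adjusted p of 0.999 in edgeR's test. It was below 0 within transplant 1 (-0.54) and within transplant 2 (-0.75), as was that of Xbp1 (-0.22 and -0.12). For the other 7 genes tested the groups overlapped.

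Hspa5 levels were 173 and 97.5 CPM in controls 1 and 2, and 119 and 103 in the libraries labelled KO (135 ± 53.3 and 111 ± 12.0). The 2 controls stood further apart than the KO libraries, which both lay between them. Its log2 fold change was -0.28 ± 0.329 (SE). Xbp1 was at 31.1 and 25.0 CPM against 26.8 and 22.98, a log2 fold change of -0.17 ± 0.299. For the sensors, Atf6 was at 23.3 and 47.0 CPM in the controls and 31.1 and 33.2 in the KO libraries, and Ern1 at 40.3 and 30.7 against 35.9 and 42.9. Control LT-HSC 1 and 2 thus bracketed both KO values of Atf6.

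Atf4 was at 28.2 and 24.7 CPM in control LT-HSC 1 and 2 and at 40.4 and 24.7 in KO 1 and 2, a log2 fold change of 0.30 ± 0.336 (SE). Only KO LT-HSC 1, the library in which Dpy30 was not low after TMM scaling, stood above the controls. Asns was at 8.98 and 5.92 CPM in control LT-HSC and 8.25 and 8.91 in the KO libraries, a log2 fold change of 0.20 ± 0.478. Ddit3 was at 4.73 and 9.66 CPM against 8.21 and 3.42, so that KO was above control in transplant 1 (0.79 on the log2 scale) and below it in transplant 2 (-1.49). Trib3, with 45 and 4 reads in the controls and 5 and 36 in the KO libraries, did not reach the filter of 1 CPM in 2 libraries and was not tested. Both genes thus went opposite ways in the 2 transplants. So did Asns (-0.12 in transplant 1 and 0.59 in transplant 2), Hspa5 (-0.53 and 0.07), Atf6 (0.41 and -0.50) and Ern1 (-0.17 and 0.48). Atf4 (0.52 and 0.0019), Xbp1 (-0.22 and -0.12) and Herpud1 did not. Markers of other cells differed among these libraries too: the 11 plasma and B cell markers summed to 94.3 and 552 CPM in the controls and 57.6 and 201 in KO 1 and 2, with Tnfrsf17 and Ms4a1 at 0 in both libraries of transplant 1, and the 7 neutrophil markers to 65.1, 325, 149 and 224. Their part in the LT-HSC values was not tested.

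**Figure D4:**
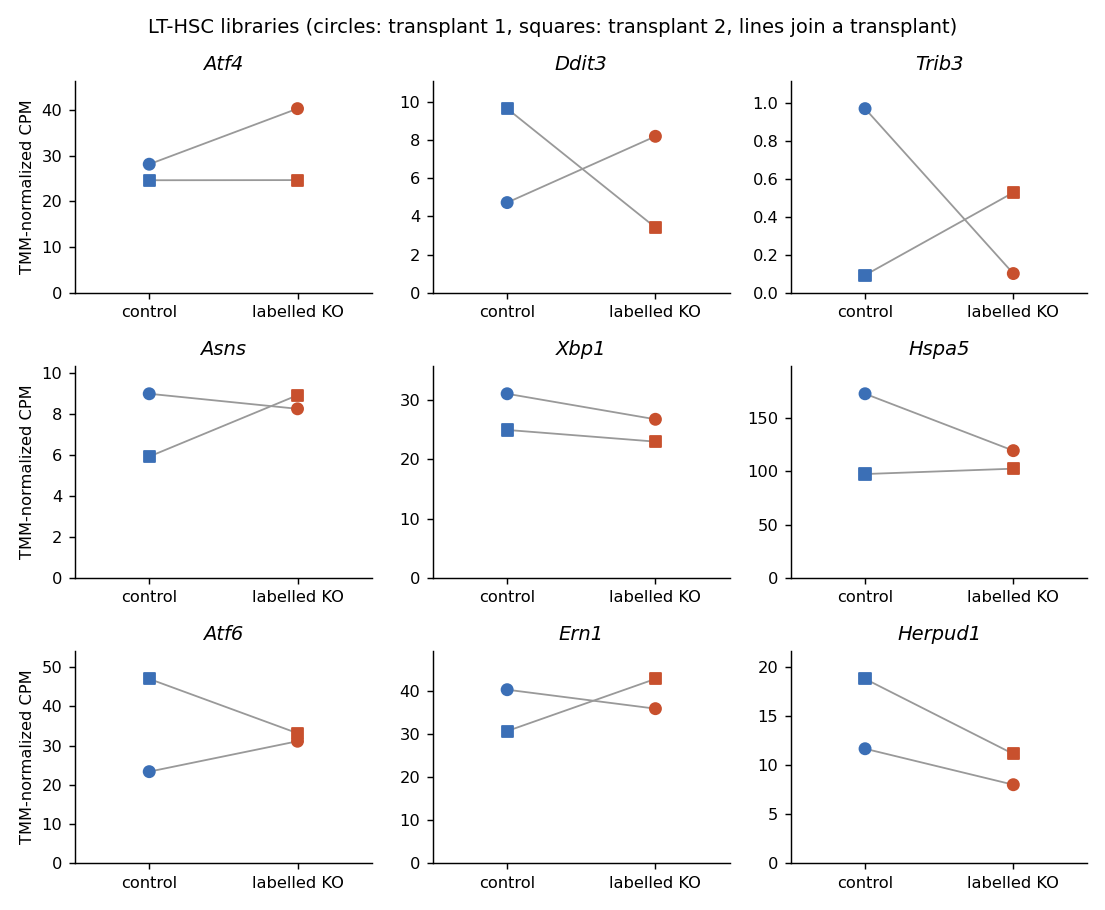
Level of each of the 9 genes in the 4 LT-HSC libraries (y axis, TMM-normalized CPM), with 1 point per library, control left and KO right, circles for transplant 1, squares for transplant 2 and lines joining each transplant. Herpud1 is the one gene of the 8 tested whose KO points, 7.98 and 11.1, both lie below its control points, 11.7 and 18.8.

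The wider pathway was described with lists of named genes, by the same counts. Of 12 genes for the other sensors, eIF2 kinases and phosphatase subunits, 0 passed 2-fold in LSK, beside 10.4% of all genes. The list medians were -0.14 in LSK and -0.30 in MyePro. In MyePro 1 gene was higher, beside 11.3% of all genes. The gene was Ppp1r15a, which encodes GADD34, the stress-induced subunit that reverses eIF2 phosphorylation. It was at 17.6 CPM in control and 35.4 in KO MyePro, a log2 ratio of 1.00 that no longer passed 2-fold with TMM on the 2 MyePro libraries alone or with a prior count of 5, and it was at 20.7 and 28.9 CPM in LSK. In LT-HSC it was at 11.4 and 29.2 CPM in the controls and 7.82 and 10.9 in the libraries labelled KO, with an adjusted p of 0.999 in edgeR's test.

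Target genes of ATF4 and CHOP were split. Of 27 listed, 21 averaged 5 CPM or more in MyePro, of which 4 were at least 2-fold higher and 2 lower in the KO library, beside 11.3% and 7.99% of all genes. The median was -0.33, and 13 of the 21 lay below the median of all genes. Higher were Atf3, a stress-induced transcription factor (1.35 and 15.4 CPM), Vldlr, a lipoprotein receptor (1.30 and 10.6), Slc7a11, the cystine transporter (2.06 and 8.19), and Ddit4, the mTORC1 inhibitor REDD1 (7.43 and 16.6). The former 3 reached the mean only through the KO library, and among the 13 targets that averaged 20 CPM or more 0 were higher and 2 lower. Lower were Slc7a1, a cationic amino acid transporter (142 and 55.4 CPM, log2 ratio -1.36), and Xpot, which exports tRNA from the nucleus (218 and 106, -1.04). Xpot, named after its values were seen as was Ddit4, was not 2-fold lower with plain library totals. In LSK, 2 of 21 were higher and 1 lower, beside 4.98% and 5.39% of all genes, with a median of -0.22. The 2 were Slc7a11 (2.51 and 8.47 CPM), which again reached the mean only through the KO library, and Cebpb, named after its values were seen (8.29 and 16.9). With a prior count of 5 there was 1. In the same comparison Vldlr was lower (30.3 and 12.6), opposite to MyePro.

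The aminoacyl-tRNA synthetases, which charge tRNAs with amino acids and are ATF4 targets as a group, were all below the control in KO MyePro. None was at least 2-fold lower, beside 7.99% of all genes. The log2 ratios of the 12 synthetases ran from -0.88 to -0.16 with a median of -0.68. All 12 lay below the median of all genes under each scaling tried. In LSK 11 of 12 did, with a median of -0.34. Eprs was at 357 and 195 CPM in control and KO MyePro and Nars at 308 and 207. From control LSK to control MyePro 11 of the 12 were above the median of all genes, with a median of 0.37, and in the KO background 8 were, with a median of 0.05. Asns stood on the same side of 0 as their median in each of the 4 comparisons, further from 0. With plain library totals this did not hold for MyePro over LSK in KO cells, where their median was -0.08 and Asns was at 0.82.

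ER chaperones and folding enzymes, the class of Hspa5, were counted in the same way. Of 16 genes 0 passed 2-fold in LSK, beside 10.4% of all genes, and 1 was higher in MyePro, beside 11.3%. The list medians were -0.06 and -0.20. In MyePro 13 of 16 lay below the median of all genes. Against the genes averaging 20 CPM or more, whose median was -0.14, 10 of 16 did. The gene that passed was Dnajb9, an ER co-chaperone and a known XBP1 target, at 27.7 and 60.2 CPM in control and KO MyePro (log2 ratio 1.12) and at 32.1 and 55.9 in LSK (0.80). Of 15 genes of ER-associated degradation, the class of Herpud1, 0 passed 2-fold in either population. The shares of all genes were 10.4% in LSK and 19.3% in MyePro. The medians of the 15 were 0.17 in LSK and -0.05 in MyePro. Vcp, the ATPase that pulls proteins out of the ER membrane, was at 446 and 351 CPM in control and KO MyePro, and Os9, a lectin that selects proteins for degradation, at 278 and 365. Both classes were mostly higher in MyePro than in LSK of the control background, as 15 of 16 chaperones and 14 of 15 degradation genes lay above the median of all genes.

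Several heat shock genes of other compartments passed 2-fold downward. Of 7 cytosolic genes counted, 2 were at least 2-fold lower in LSK, beside 5.39% of all genes, and 3 in MyePro, beside 7.99%, with medians of -0.84 and -0.93. In MyePro these were Hsph1 (262 and 90.5 CPM), Hsp90aa1 (1395 and 508) and Hspa8 (2438 and 1076), all chaperones of the cytosol. Those in LSK were Hsph1 (150 and 72.3 CPM) and the co-chaperone gene Bag3 (22.8 and 8.92). Plain library totals left 1 of the 2 in LSK. Of 10 mitochondrial chaperones and proteases, 1 was at least 2-fold lower in LSK and 3 in MyePro, beside the same shares of all genes, with medians of -0.34 and -0.85, and 10 of 10 lay below the median of all genes in MyePro. Hspd1, the mitochondrial chaperonin, was at 897 and 271 CPM in control and KO MyePro and at 516 and 252 in LSK, where plain library totals left 0 past 2-fold. Htra2, a protease, was at 102 and 34.9 CPM and Hspa9, the mitochondrial HSP70, at 782 and 374 in MyePro. In LT-HSC 0 genes of any of these lists had an adjusted p under 0.05 in edgeR's test or in DESeq2's. At an unadjusted p under 0.05 in edgeR's test the count was 1 of 21 ATF4 targets (Ero1l). It was 1 of 16 degradation genes (Ube2j1), 1 of 10 mitochondrial genes (Lonp1) and 0 in each other list. The share of all genes was 2.29%, and the genes were named after their values were seen. Heat shock genes such as Hspa8 and Hspd1 have near-identical copies in the genome, so their counts are uncertain.

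**Figure D5:**
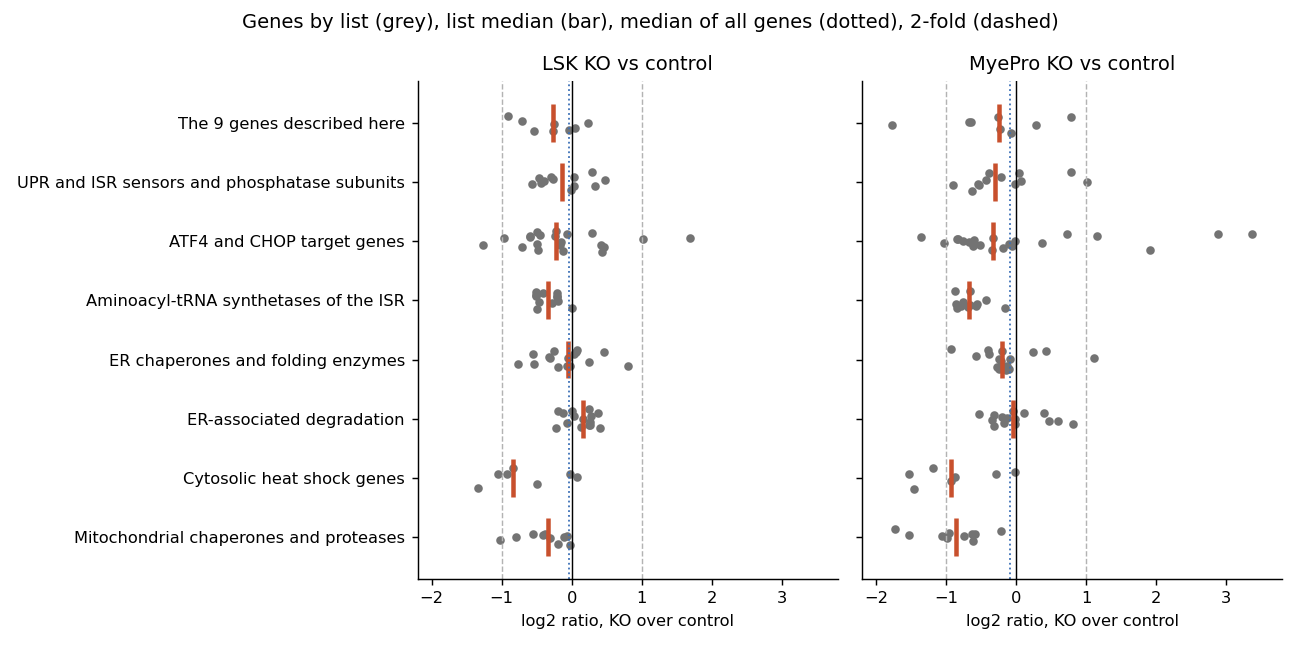
Log2 ratio of KO over control (x axis) in LSK (left) and MyePro (right) for the genes of each list that averaged 5 CPM or more, with 1 grey point per gene, a red bar for the list median, a dotted line for the median of all genes and dashed lines at 2-fold. Trib3 is not shown. The synthetases in MyePro lie together around -0.68, and the cytosolic and mitochondrial lists have the lowest medians there, at -0.93 and -0.85.

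Likeness between the genes was measured over all 8 libraries as the root mean square distance of log2 CPM, after taking out each gene's mean within the LSK and MyePro set and within the LT-HSC set. It was computed over 5524 genes that averaged 10 CPM or more in each set and had a unique symbol found in both. Symbols starting with Gm or ending in Rik were left out. Of the genes described here, the level limit left out Ddit3, Trib3 and Asns. Of the 6 that remained, Xbp1 and Hspa5 were the closest at 0.206, then Atf4 with Xbp1 and with Hspa5, both at 0.28 or less, and Atf6 with Herpud1 at 0.288. Atf4 and Herpud1 were the furthest apart at 0.550. Over these 5524 genes, those nearest to Atf4 were Alg8 (0.0760), Imp4 (0.0794), Zfp961 (0.0893), Mapk9 (0.0928) and Naca (0.0930), beside a median distance of 0.387. Those nearest to Hspa5 were Bcl2l13 (0.104), Tbc1d2b (0.104), Fbl (0.120), Nomo1 (0.121) and Gnl2 (0.134), beside a median of 0.420. The libraries share normalization within each set, and these distances are a description with no test.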

How the data were processed

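The deposited values are raw read counts per gene, made by the authors, 1 file per library, by symbol for LSK and MyePro and by Ensembl ID for LT-HSC. Per the submitters' processing notes the build was mm10 and the tools included HTSeq 0.6.0, TopHat2, DESeq 3.0, Picard 1.126 and CASAVA 1.8.4. What each tool did, which annotation was used and whether counting used strand is not given in the sources used here. Overlapping and antisense genes may therefore share reads. Per the labels' protocols, RNA was polyA-selected. Of the 14 samples, the 6 ChIP-seq samples were not analysed here.

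Rows that name no gene, ERCC spike-ins and the entry DPY30-SPKIG were left out. Reads without a feature were 2.40% to 6.25% of the file totals in LSK and MyePro and 16.7% to 26.0% in LT-HSC, and reads aligned to more than 1 place were 23.9% to 37.9% over all 8. Symbols were matched for 37607 of 39179 IDs. Positions are from RefSeq GRCm38.p6.

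The 2 sets of libraries were scaled apart, by TMM. LT-HSC counts were tested, two-sided, with edgeR 4.0.16 (R 4.3.3) in its quasi-likelihood fit over genes with at least 1 CPM in 2 libraries, called at a Benjamini-Hochberg adjusted p under 0.05, with no block. DESeq2 1.42.0 was an alternative. The replicates are pools of mice from separate transplants. The labels tie control 1 to KO 1 and control 2 to KO 2 by transplant, which pairs them. Their deviations from the group means had a correlation of 0.292 across genes. LSK and MyePro, with 1 library per group, had no test, and log2 ratios had 2 reads added as prior. A 2-fold limit was applied to genes averaging 5 CPM or more in the libraries compared. The 95% intervals of single ratios are exact binomial on the counts without the prior. Those of a difference between ratios are a normal approximation from the counts, which is rough for Trib3 with its few reads. The fits were tested on simulated data. From the plasma and B cell markers 1 gene is not reported here and was left out of the sums.

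The members, gene lists, rule for named genes and alternatives were chosen with earlier results of these data known. From each list were named up to 4 genes with the largest ratios past 2-fold in LSK or MyePro, or the 2 with the highest level where none passed.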

Additional observations from a re-analysis of the deposited data

How the results depend on the processing

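None of the 8 genes tested in LT-HSC passed an adjusted p under 0.05 in edgeR's or DESeq2's test under any of the 11 alternatives tried, the replicate block by transplant included, and the smallest adjusted p was 0.774, for Herpud1 without control LT-HSC 1. The number of genes called in LT-HSC was 2, and it was 4 with the replicate block, 4 with plain library totals, 4 with totals without mitochondrial ribosomal RNA, 14 with DESeq2, 4 without a filter, 4 with at least 5 CPM in 2 libraries, and 0 to 5 when 1 library was left out. The cause was not tested.

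Leaving out 1 LT-HSC library at a time gave uncalled log2 fold changes from -0.10 (without KO 1) to 0.61 for Atf4, from -1.07 to 0.31 (without control 2; 0.19 without KO 2) for Ddit3, from -0.055 (without control 2) to 0.54 for Asns, from -0.31 to 0.00375 (without control 1) for Xbp1, from -0.63 to 0.20 (without control 1) for Hspa5, from -0.54 to 0.47 (without control 2) for Atf6, from -0.023 (without control 2) to 0.37 for Ern1 and from -0.97 to -0.27 for Herpud1. The values beside a named library turned sign. So did plain library totals for Atf4 (-0.19), Asns (-0.13) and Ern1 (-0.16). Library totals moved the LT-HSC median of all genes from 0.00 to -0.35, that of LSK from -0.04 to 0.09 and that of MyePro over LSK in KO cells from 0.00 to -0.13, where Ddit3 was then at -0.0027 and Atf6 at -0.05.

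Asns in MyePro passed 2-fold under all 8 alternatives there, from -1.80 to -1.73. Those that change only the CPM minimum or the fold limit cannot move its ratio. At a 1.5-fold limit the genes past it were 2 in LSK (Asns and Xbp1), beside 23.8% of all genes, 4 in MyePro (Atf4, Asns, Hspa5 and Ern1), beside 40.1%, 2 from LSK to MyePro in control cells, beside 22.7%, and 3 in KO cells, beside 13.9%. Depth limits Trib3 and Ddit3.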
